A study of Bos taurus with 33 samples.

Results

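The genes described here are 10 genes of macrophages and dendritic cells (CSF1R, AIF1, CD68, CD163, MSR1, OLR1, CD5L, CD14, FCGR3A and CD86), chosen by name, with every probe set that the array's annotation assigns to them. The choice was made with earlier results of these data known. Counts of these genes above the share of all probe sets may follow in part from that choice. The annotation named a probe set for 9 of the 10, and CD163 had none. The 9 genes had 12 probe sets in all, 3 for MSR1, 2 for CD14 and 1 for each other gene, out of 9155 named genes and 24016 probe sets tested.

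Expression was measured on Affymetrix bovine arrays in the endometrium of 33 Bavarian Simmental heifers, 1 array per heifer, all synchronised with a prostaglandin F2α analogue. The study asked how far the response of the uterine lining to human interferon alpha matches its response to early pregnancy. In the biopsy experiment the uterine horn on the side of the corpus luteum received, on day 14 of the cycle, a lipid extrudate releasing human interferon alpha (the IFNA group, n = 3), the same kind of extrudate without interferon (placebo, n = 3) or phosphate-buffered saline (PBS, n = 3), and about 6 biopsies per animal were taken on day 16 after flushing. In the pregnancy experiment, intercaruncular endometrium was collected at slaughter from inseminated, pregnant heifers and from cyclic heifers that had received sperm-free seminal supernatant, on day 12 (5 and 5), day 15 (3 and 3) and day 18 (4 and 4). Sampling took a different stretch of the horn on each day (distal on day 12, medial on day 15, caudal on day 18 and in the biopsies), and stretch and day cannot be told apart. The agent was human interferon alpha and not the interferon tau of the bovine conceptus. Each array holds endometrial tissue of mixed cell types, so more cells of a type and more RNA per cell cannot be told apart.

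Macrophages and dendritic cells are myeloid cells that survive in tissues through colony-stimulating factor signalling, clear debris and modified lipids through scavenger receptors, bind bacterial products and antibodies through surface receptors, and can present antigen together with costimulatory ligands. In the endometrium of ruminants they lie mainly in the stroma, and early pregnancy is a time when the conceptus secretes interferon tau and the uterine immune cells adapt to it. Many interferon-induced genes, such as MX2 and ISG15, respond in the epithelium and stroma themselves, whereas the genes described here are known mainly from the immune cells in the tissue.

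Values are the deposited log2 expression levels, and differences are log2 differences with the standard error (SE) of a linear model fitted with limma. A probe set counted as changed when its Benjamini-Hochberg adjusted p over all 24016 probe sets was below 0.05. The sorted values were nearly identical within the 9 biopsy arrays and within the arrays of each slaughter day but not between these 4 sets, so levels are compared only within a set. Levels of different probe sets are not compared with each other, because their probes differ, and the probe sets of MSR1 and CD14 are called brightest, brighter or dimmer by their mean signal only to tell them apart. The antiviral genes MX2 and ISG15 checked the treatment: MX2 was higher by 5.41 ± 0.25 with IFNA than with placebo (limma, adjusted p = 1.65e-05) and by 5.57 ± 0.27 in pregnant than in cyclic animals on day 18 (adjusted p = 1.46e-12). As a measure of RNA quality, the 3′ probe set of GAPDH exceeded the 5′ probe set by 1.03 to 3.87 log2 in the biopsies and by -0.16 to 0.56 at slaughter.

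**Figure D1:**
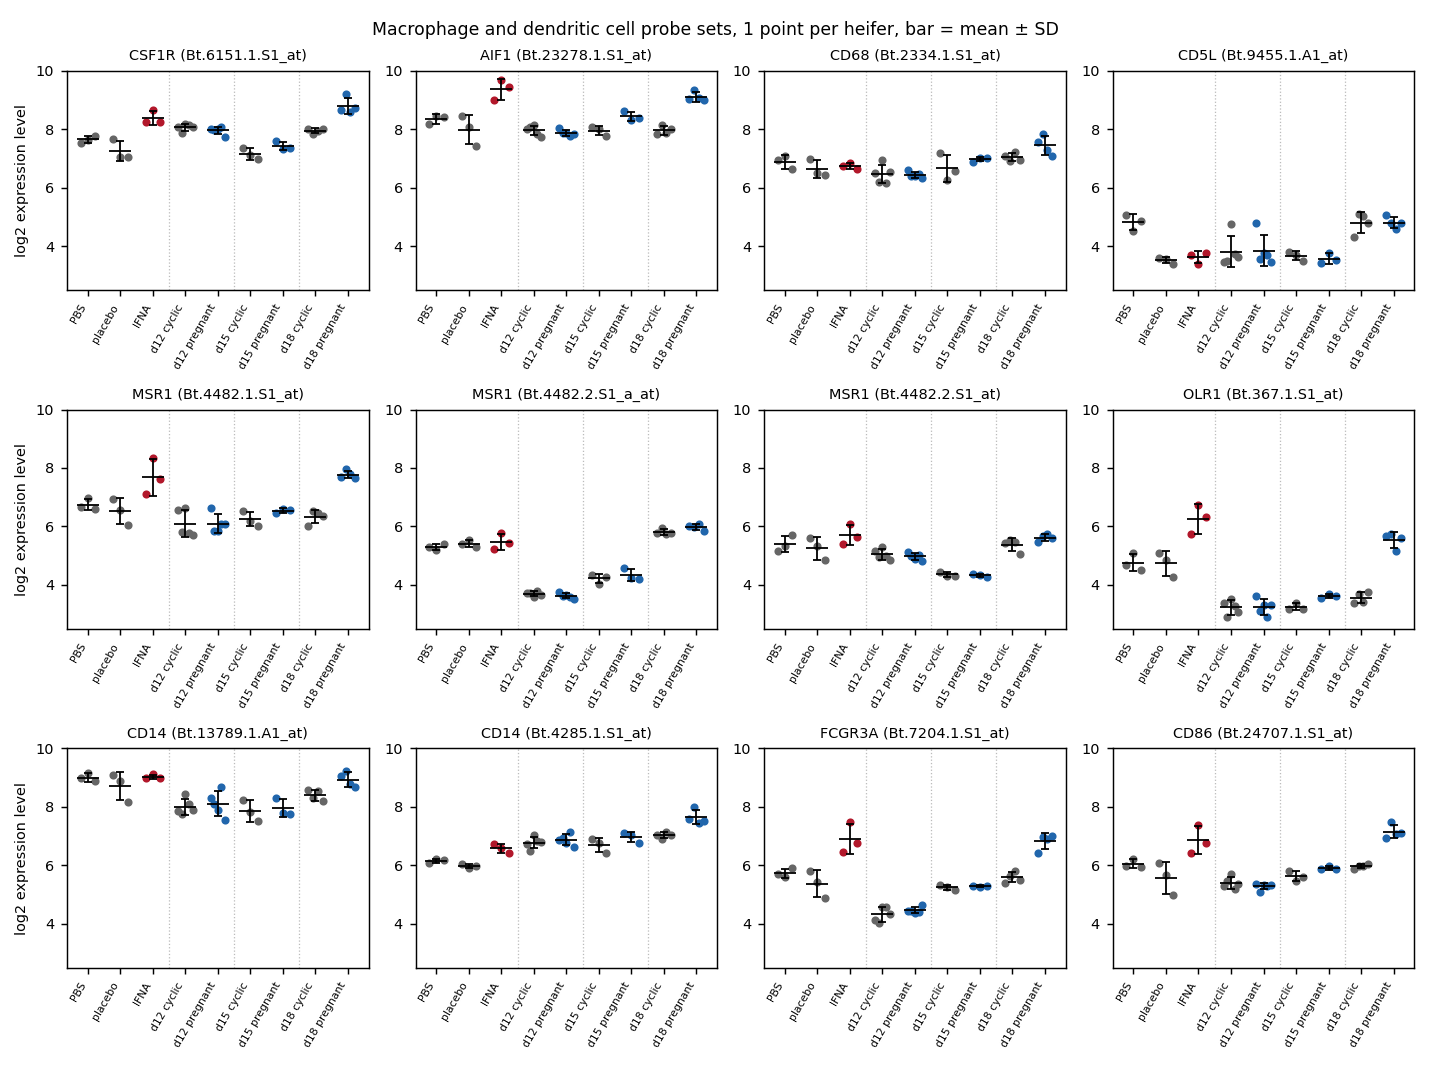
Log2 expression level (vertical axis) of each of the 12 probe sets in the 9 groups, 1 point per heifer, with the group mean and SD as bars. Dotted lines separate the 4 sets of arrays. The first MSR1 panel is the brightest of its 3 probe sets and the first CD14 panel the brighter of its 2. In the panels of CSF1R, AIF1, MSR1 (brightest probe set), OLR1, FCGR3A and CD86, all day 18 pregnant animals (blue) lie above all day 18 cyclic animals, and all IFNA animals (red) lie above all placebo and PBS animals.

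Endometrium of pregnant heifers on day 18 had more RNA of most of these genes than endometrium of cyclic heifers on that day. Of the 12 probe sets 7 rose and 0 fell, against 8.84% of all probe sets that rose and 10.2% that fell. The 7 were those of OLR1, FCGR3A, CD86, AIF1 and CSF1R and 1 probe set each of MSR1 and CD14. The 4 pregnant and 4 cyclic animals did not overlap, with the pregnant animals higher, for 8 of the 12, against 9.24% of all probe sets. The median difference was 0.73 over the 12 probe sets and -0.03 over all probe sets. All 7 kept their call when any of the 8 day 18 arrays was left out.

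Of the genes that mark macrophages as a lineage, CSF1R encodes the receptor for colony-stimulating factor, on which these cells depend for survival. Its log2 levels on day 18 were 8.65, 9.21, 8.60 and 8.72 in the pregnant heifers and 8.00, 7.83, 7.92 and 8.02 in the cyclic heifers. Every pregnant animal lay above every cyclic animal, with pregnant animal 2 the highest. CSF1R rose by 0.85 ± 0.12 on the log2 scale, 1.81-fold (limma, adjusted p = 1.72e-05). AIF1, which encodes the calcium-binding, actin-associated protein IBA1 used to stain macrophages, stood at 9.02, 9.35, 9.08 and 8.98 in pregnant and at 7.82, 8.15, 7.86 and 8.02 in cyclic heifers. The lowest pregnant value was well clear of the highest cyclic one, and AIF1 rose by 1.15 ± 0.10, 2.21-fold (adjusted p = 4.35e-08). CD68, a lysosomal glycoprotein of macrophages, stood at 7.55, 7.85, 7.30 and 7.09 in pregnant and 7.08, 6.91, 7.22 and 6.95 in cyclic heifers. These groups overlapped, because pregnant animal 4 lay below cyclic animal 3, and the difference of 0.41 ± 0.17 did not pass the test (adjusted p = 0.111, 95% confidence interval 0.04 to 0.77).

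Among the scavenger receptors, OLR1 encodes the lectin-like receptor for oxidised low-density lipoprotein, known in macrophages and in endothelium. It stood at 5.66, 5.73, 5.15 and 5.60 in the day 18 pregnant heifers and at 3.38, 3.70, 3.43 and 3.77 in the cyclic heifers, so the groups were far apart. It rose by 1.97 ± 0.15 on the log2 scale (limma, adjusted p = 2.52e-09). The cyclic values lay at a mean percentile of 7.78 among all probe sets on their arrays, and the deposited values carry no detection calls, so no fold is given. MSR1, the class A macrophage scavenger receptor for modified lipoproteins, gave different results in its 3 probe sets. In the brightest the pregnant heifers stood at 7.68, 7.95, 7.80 and 7.67 and the cyclic heifers at 6.01, 6.54, 6.45 and 6.35. That probe set rose by 1.44 ± 0.20, 2.71-fold (adjusted p = 1.79e-05), with no overlap. The other MSR1 probe sets did not pass: the middle one differed by 0.24 ± 0.10 (adjusted p = 0.101) and the dimmest by 0.17 ± 0.09 (adjusted p = 0.184), with overlapping groups in both. The rise was thus found in 1 of the 3 MSR1 probe sets, while their mean rose by 0.62 ± 0.10 (adjusted p = 0.000161). CD5L, a secreted scavenger receptor protein that supports macrophage survival, stood at 5.07, 4.79, 4.58 and 4.78 in pregnant and at 4.31, 5.10, 5.04 and 4.78 in cyclic heifers. These values overlapped throughout, and the 95% confidence interval of the CD5L difference ran from -0.55 to 0.54.

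The receptors for bacterial products and antibodies also differed between pregnant and cyclic heifers on day 18. CD14, the co-receptor that delivers lipopolysaccharide to Toll-like receptor 4, has 2 probe sets. The dimmer one stood at 7.60, 8.00, 7.46 and 7.51 in pregnant and at 7.05, 6.90, 7.15 and 7.03 in cyclic heifers, and rose by 0.61 ± 0.13, 1.53-fold (limma, adjusted p = 0.00225). The brighter one stood at 9.05, 9.23, 8.77 and 8.67 in pregnant and at 8.56, 8.29, 8.54 and 8.19 in cyclic heifers. Its groups did not overlap either, but its difference of 0.54 ± 0.21 did not pass (adjusted p = 0.0747). FCGR3A, the low-affinity Fc receptor for immunoglobulin G (CD16) known in macrophages, monocytes and natural killer (NK) cells, stood at 6.42, 6.97, 6.89 and 7.02 in pregnant and at 5.41, 5.65, 5.82 and 5.51 in cyclic heifers. It rose by 1.23 ± 0.13, 2.34-fold (adjusted p = 3.52e-07). CD86, the costimulatory ligand with which antigen-presenting cells engage CD28 on T cells, stood at 6.95, 7.48, 7.08 and 7.10 in pregnant and at 5.87, 5.99, 5.98 and 6.05 in cyclic heifers. It rose by 1.18 ± 0.11, 2.27-fold (adjusted p = 5.64e-08). Pregnant animal 2 had the highest value of its group for CSF1R, AIF1, MSR1 (brightest probe set), OLR1, both CD14 probe sets and CD86, but not for FCGR3A.

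**Figure D2:**
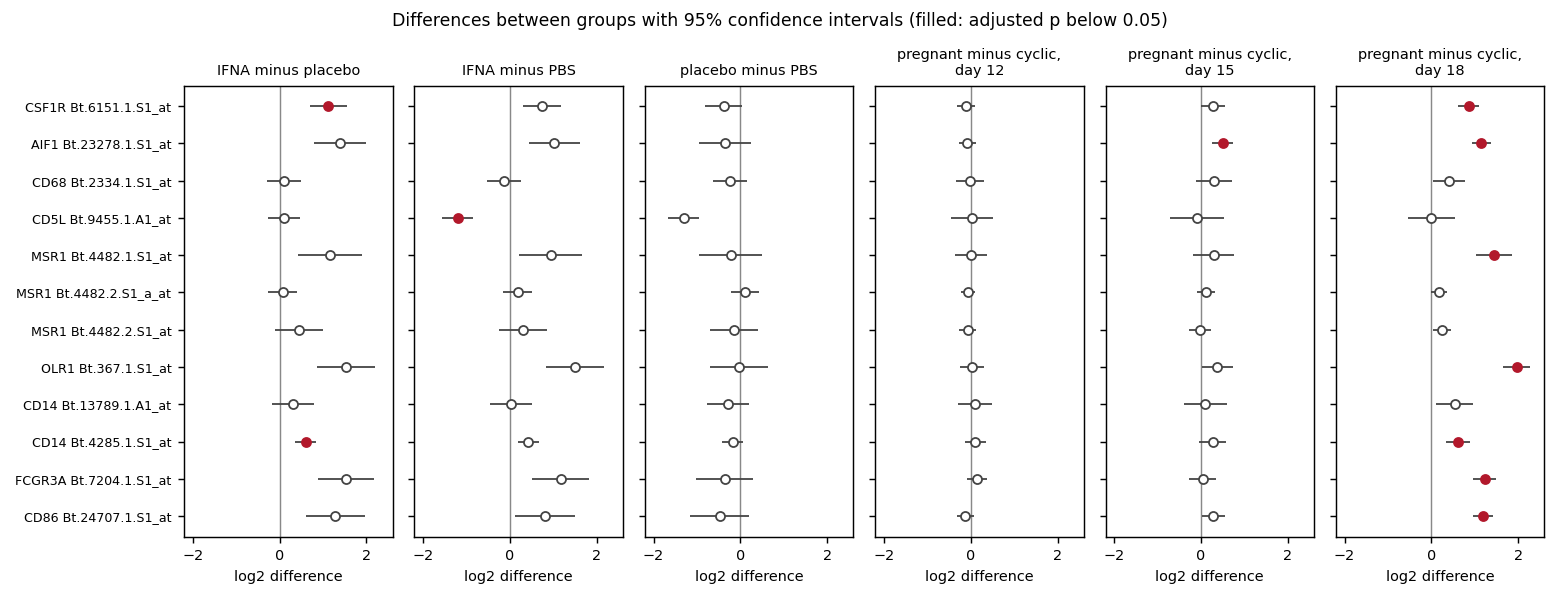
Log2 difference (horizontal axis) of each probe set in the 6 comparisons between groups, with its 95% confidence interval. Filled points passed an adjusted p below 0.05. The panel of day 18 holds 7 filled points, that of day 15 only AIF1, that of day 12 none, and CD5L is the filled point below 0 in the comparison of IFNA with PBS.

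On day 12 none of the 12 probe sets differed between pregnant and cyclic heifers. With limma 0 of 12 passed, and 0 of 12 had an unadjusted p below 0.05, against 0.00416% of all probe sets that passed and 6.65% with an unadjusted p below 0.05. The differences ran from -0.13 for CD86 to 0.14 for FCGR3A, and 0 of 12 had groups without overlap, against 0.954% of all probe sets. CSF1R ran from 7.87 to 8.19 (median 8.08) in the 5 cyclic heifers and from 7.73 to 8.08 (median 8.00) in the 5 pregnant heifers. AIF1 ran from 7.74 to 8.14 in cyclic and from 7.75 to 8.04 in pregnant heifers. The 95% confidence interval of the AIF1 difference was -0.27 to 0.11.

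On day 15 AIF1 was the 1 probe set of 12 that rose in pregnant heifers, and 0 fell, against 2.75% of all probe sets that rose and 2.32% that fell. AIF1 stood at 8.61, 8.32 and 8.39 in the 3 pregnant heifers and at 8.07, 7.99 and 7.78 in the 3 cyclic heifers. It rose by 0.49 ± 0.12, 1.41-fold (limma, adjusted p = 0.0173), with no overlap. The call ended without cyclic animal 3 or without pregnant animal 1, with differences between 0.41 and 0.56 and an adjusted p of up to 0.107 over the 6 arrays left out in turn. It also ended when only the day 15 arrays were fitted (adjusted p = 0.087). OLR1 and CD86 were also higher in all 3 pregnant animals. OLR1 stood at 3.56, 3.70 and 3.62 in pregnant and 3.19, 3.39 and 3.19 in cyclic heifers, a difference of 0.37 ± 0.17 that did not pass (adjusted p = 0.248). CD86 stood at 5.88, 5.98 and 5.88 against 5.81, 5.48 and 5.61, a difference of 0.28 ± 0.12 that did not pass (adjusted p = 0.224). Groups without overlap and with pregnant animals higher were thus found for 3 of 12 probe sets, against 9.91% of all probe sets. FCGR3A, at 5.29, 5.25 and 5.31 in pregnant and 5.33, 5.25 and 5.17 in cyclic heifers, overlapped fully (95% confidence interval of the difference -0.27 to 0.34). The median difference over the 12 probe sets was 0.27, and -0.01 over all probe sets.

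The pregnancy difference itself was larger on day 18 than on day 15 for OLR1, FCGR3A and CD86. Day, stretch of the horn and set of arrays cannot be told apart in this comparison. The test was the interaction term, the day 18 difference minus the day 15 difference. OLR1 grew by 1.59 ± 0.23 (limma, adjusted p = 0.00161), FCGR3A by 1.19 ± 0.19 (adjusted p = 0.00572) and CD86 by 0.90 ± 0.17 (adjusted p = 0.0181). These are 3 of 12 probe sets, against 0.167% of all probe sets whose difference grew. The OLR1 call ended when all 33 arrays were quantile normalised together (adjusted p = 0.0638). The CD86 call ended without day 15 cyclic animal 1 or day 15 pregnant animal 3, with values between 0.79 and 0.98 and an adjusted p of up to 0.0867 over the 14 arrays left out in turn. MSR1 (brightest probe set, 1.15 ± 0.30, adjusted p = 0.139), AIF1 (0.65 ± 0.16, adjusted p = 0.118) and CSF1R (0.59 ± 0.18, adjusted p = 0.221) did not pass this test. From day 12 to day 15, 0 of 12 differences passed as grown or shrunk with limma, against 1.99% of all probe sets. Of the 12, 3 had an unadjusted p below 0.05 (AIF1, CSF1R and CD86), against 14.4% of all probe sets, and AIF1 came closest to the threshold at 0.58 ± 0.15 (adjusted p = 0.0505).

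With IFNA in the uterus, 2 of the 12 probe sets rose over placebo and 0 fell, against 0.837% of all probe sets that rose and 0.0291% that fell. These were CSF1R and CD14 (dimmer probe set). The 3 IFNA animals lay above the 3 placebo animals for 7 of 12 probe sets, against 5.38% of all probe sets, and the same number had an unadjusted p below 0.05, against 4.84% of all probe sets for higher values. All 12 differences were above 0, with a median of 0.86, while 44.8% of all probe sets were above 0 with a median of -0.02.

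CSF1R stood at 8.23, 8.66 and 8.26 with IFNA, 7.66, 7.06 and 7.06 with placebo, and 7.53, 7.63 and 7.78 with PBS. The IFNA animals lay above both control groups, and CSF1R rose by 1.12 ± 0.19 over placebo, 2.18-fold (limma, adjusted p = 0.0315). Without any 1 IFNA animal, and without placebo animal 2 or 3, the call ended, with differences between 0.98 and 1.32 and an adjusted p of up to 0.125. AIF1 stood at 8.98, 9.69 and 9.44 with IFNA, 8.45, 8.07 and 7.44 with placebo, and 8.16, 8.46 and 8.42 with PBS. No control animal reached an IFNA animal, but the difference of 1.38 ± 0.26 over placebo missed the threshold (adjusted p = 0.0595). CD68 stood at 6.75, 6.83 and 6.65 with IFNA and at 6.99, 6.50 and 6.43 with placebo, with overlap and a 95% confidence interval of the difference of -0.29 to 0.50.

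Of the scavenger receptors, OLR1 stood at 5.73, 6.74 and 6.33 with IFNA, 5.10, 4.85 and 4.27 with placebo, and 4.68, 5.10 and 4.52 with PBS. Its differences were 1.53 ± 0.29 over placebo (limma, adjusted p = 0.0634) and 1.5 ± 0.29 over PBS (adjusted p = 0.0702), without overlap in either. The brightest MSR1 probe set stood at 7.10, 8.35 and 7.61 with IFNA, 6.95, 6.58 and 6.05 with placebo, and 6.67, 6.97 and 6.60 with PBS. IFNA animal 1 lay just above the highest control of each group, and the difference of 1.16 ± 0.32 over placebo did not pass (adjusted p = 0.25). The other MSR1 probe sets differed by 0.44 ± 0.25 and 0.07 ± 0.15 over placebo, with overlapping groups.

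CD14 differed between its probe sets here too. The dimmer one stood at 6.73, 6.61 and 6.41 with IFNA, 6.04, 5.91 and 5.99 with placebo, and 6.08, 6.22 and 6.18 with PBS. It rose by 0.60 ± 0.11 over placebo, 1.52-fold (limma, adjusted p = 0.0427). That call ended without IFNA animal 1 or 2 or any 1 placebo animal (1, 2 or 3), with differences between 0.53 and 0.69 and an adjusted p of up to 0.175. The brighter one stood at 8.99, 9.11 and 8.97 with IFNA, 9.09, 8.90 and 8.16 with placebo, and 8.99, 9.15 and 8.87 with PBS, so the groups overlapped. Its 95% confidence interval was -0.18 to 0.80 against placebo and -0.47 to 0.51 against PBS.

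FCGR3A stood at 6.45, 7.47 and 6.78 with IFNA, 5.80, 5.43 and 4.89 with placebo, and 5.72, 5.59 and 5.90 with PBS. All IFNA animals were above all controls, but the difference of 1.53 ± 0.29 over placebo missed the threshold (limma, adjusted p = 0.057). CD86 stood at 6.43, 7.39 and 6.76 with IFNA, 6.08, 5.66 and 5.00 with placebo, and 5.98, 6.23 and 5.96 with PBS, a difference of 1.28 ± 0.30 over placebo (adjusted p = 0.144). With the 6 placebo and PBS animals together as controls, a comparison chosen after seeing the data, 5 of 12 probe sets rose, namely CSF1R, AIF1, OLR1, CD14 (dimmer probe set) and FCGR3A, against 1.1% of all probe sets that rose in that comparison.

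Against PBS, 0 of 12 probe sets rose with limma, against 0.712% of all probe sets, although 7 of 12 had an unadjusted p below 0.05 with higher values, against 3.98% of all probe sets. The same 7 had no overlap, against 6.09% of all probe sets. The IFNA arrays are shared between this comparison and the one with placebo. The 1 probe set of 12 that fell against PBS was CD5L, against 0.15% of all probe sets that fell. CD5L stood at 3.71, 3.40 and 3.76 with IFNA, 3.60, 3.57 and 3.40 with placebo, and 5.07, 4.53 and 4.87 with PBS. It fell by 1.20 ± 0.16 on the log2 scale (limma, adjusted p = 0.00885), and without PBS animal 3 the call ended (adjusted p = 0.0507, differences between -1.35 and -1.08 over the 6 arrays left out in turn). IFNA and placebo animals overlapped for CD5L, and both groups lay below all PBS animals. The mean percentile of CD5L was 12.9 with IFNA, 11.5 with placebo and 26.3 with PBS. Low signal cannot be told from none there, so no fold is given. CD5L was the 1 probe set of 12 with all IFNA animals below all PBS animals, a share near the 8.47% of all probe sets.

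The lipid extrudate alone was compared with PBS as well. With limma 0 of 12 probe sets passed, against 0% of all probe sets, and 1 of 12 had an unadjusted p below 0.05, against 2.71% of all probe sets. That probe set was CD5L, with placebo minus PBS at -1.30 ± 0.16 and an adjusted p of 0.428. Placebo animals lay below all PBS animals for 2 of 12 probe sets, CD5L and CD14 (dimmer probe set), against 3.44% of all probe sets. Of the 12 differences 1 was above 0 and 11 were below 0, with a median of -0.26, while 50.1% of all probe sets were above 0. Placebo animal 1 was the highest placebo animal in 11 of 12 probe sets and placebo animal 3 the lowest in 11 of 12, so the differences from placebo carry this spread. The 3′ minus 5′ GAPDH difference was 2.83 in placebo animal 1, 3.87 in animal 2 and 1.03 in animal 3, the lowest of all biopsies. In the IFNA group animal 2 was the highest in 10 of 12 probe sets and animal 1 the lowest in 8, with GAPDH differences of 2.49 and 1.66. The part of RNA quality in these differences was not tested beyond a fit with the GAPDH difference as a covariate, in which 5 of 12 probe sets rose over placebo, against 1.25% of all probe sets that rose in that fit.

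**Figure D3:**
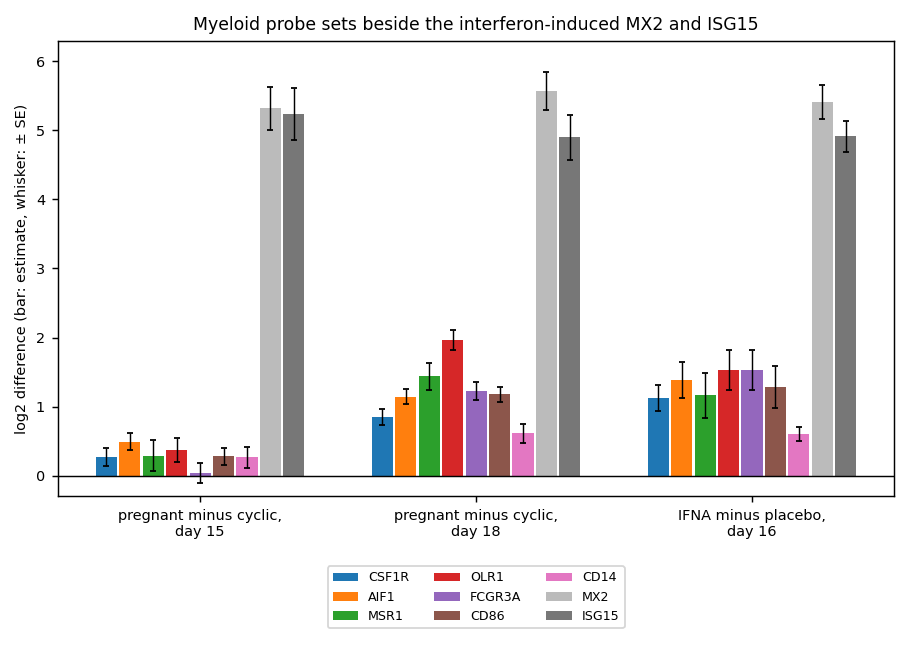
Log2 difference (bars, vertical axis) with its SE (whiskers) for the 7 probe sets that rose on day 18 and for MX2 and ISG15, in pregnant minus cyclic animals on days 15 and 18 and in IFNA minus placebo. MX2 and ISG15 stand at 4.90 to 5.57 in all 3 comparisons, while the 7 probe sets stand at 0.03 to 0.49 on day 15 and at 0.60 to 1.97 in the other comparisons. The 7 were chosen by their day 18 call, so their day 18 height follows in part from that choice. The 5 probe sets not called on day 18, from -0.0025 (CD5L) to 0.54 (brighter CD14 probe set) on that day, are not drawn.

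The difference made by IFNA was tested directly against that made by pregnancy, as IFNA minus placebo, less pregnant minus cyclic. The experiments also differ in day, sampling, RNA quality and set of arrays, and these cannot be told apart from the agent. For day 15 the stretch of the horn differs too. Against day 15, the IFNA difference was larger for 1 of 12 probe sets, FCGR3A, by 1.49 ± 0.29 (limma, adjusted p = 0.0181), against 0.187% of all probe sets with a larger IFNA difference. The FCGR3A difference was 1.53 with IFNA and 0.03 on day 15. The call ended without IFNA animal 2 or day 15 cyclic animal 2, with values between 1.21 and 1.72 and an adjusted p of up to 0.0903. OLR1 (1.16 ± 0.31), CD86 (1.00 ± 0.28), AIF1 (0.89 ± 0.25) and CSF1R (0.86 ± 0.22) did not pass, with adjusted p-values of 0.102, 0.11, 0.11 and 0.0794. The antiviral gene MX2 differed by 5.32 on day 15 and by 5.41 with IFNA.

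Against day 18, 0 of 12 differences passed with limma and 0 had an unadjusted p below 0.05, against 1.09% of all probe sets that passed and 13.2% with an unadjusted p below 0.05. These terms ran from -0.44 for OLR1 to 0.30 for FCGR3A. The 95% confidence intervals were wide: -1.04 to 0.16 for OLR1, -0.25 to 0.85 for FCGR3A, -0.44 to 0.64 for CD86, -0.24 to 0.72 for AIF1 and -0.15 to 0.69 for CSF1R. The intervals include differences of up to these bounds, so the lack of a call does not show that the IFNA and the day 18 response are equal. Both terms share the IFNA and placebo arrays.

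Other genes of the same pathways were read from 7 lists, and where a gene has several probe sets, the one with the highest mean stands for it. The shares of all probe sets are given beside the list counts. The lists were chosen with earlier results of these data known, so a count above its share may follow in part from that choice. Among the growth factors and lineage factors, 3 of 9 measured genes rose on day 18 and 0 fell, against 8.84% and 10.2% of all probe sets. These were IRF8, a transcription factor of monocytes and dendritic cells (0.72), CSF1, the ligand of CSF1R (0.61), and CEBPB, a transcription factor of myeloid cells (0.46). A second probe set of CSF1 (0.00) and one of IRF8 (0.15) did not pass, and without day 18 pregnant animal 3 the call of CEBPB ended (adjusted p = 0.0633). The list's median was 0.10, against -0.03 over all probe sets. With IFNA over placebo 1 of 9 rose, IRF8 (0.81), whose other probe set stood at -0.15, against 0.837% of all probe sets. On day 15 0 of 9 passed with limma while 4 had an unadjusted p below 0.05, all with higher values, against 7.62% of all probe sets. The IRF8 call with IFNA ended without any 1 IFNA animal and without placebo animal 2 or 3 (adjusted p of up to 0.165).

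Among the genes of scavenging, haem and lipid handling, 6 of 22 rose on day 18 and 1 fell, against 8.84% and 10.2% of all probe sets, with a median of 0.15. The largest rises were those of TIMD4, a receptor for phosphatidylserine on dying cells (2.93), HP, haptoglobin (1.09), LIPA, lysosomal acid lipase (0.57), and MERTK, a receptor kinase for the uptake of dying cells (0.44). At slaughter the mean HP signal lay below 6, so HP was not tested in the fit limited to brighter probe sets. The gene that fell, named after its value was seen, was COLEC12, a scavenger receptor with a collagen stem (-0.42). Its call ended without day 18 cyclic animal 1, 2 or 3 or pregnant animal 3 or 4 (adjusted p of up to 0.136), and that of LIPA ended without cyclic animal 2 or 3 or pregnant animal 2 or 3 (up to 0.0874). On day 15, 2 of 22 rose, TIMD4 (1.61) and LIPA (0.70), against 2.75% of all probe sets. LIPA lost its call without cyclic animal 3 or pregnant animal 1 or 3 (adjusted p of up to 0.186). TIMD4 also rose with IFNA, by 2.73 over placebo and by 2.72 over PBS, the 1 gene of 22 that passed in each, against 0.837% and 0.712% of all probe sets that rose. Over placebo the TIMD4 call ended without IFNA animal 3 (adjusted p = 0.0562), and that over PBS ended without IFNA animal 2 or 3 or PBS animal 2 or 3 (up to 0.0582).

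Of the genes of lipopolysaccharide and Toll-like receptor signalling, the pathway that CD14 serves, 6 of 13 rose on day 18 and 0 fell, against 8.84% and 10.2% of all probe sets, with a median of 0.25. The largest rises were those of BPI, a protein that binds and neutralises lipopolysaccharide (1.93), LBP, the serum protein that passes lipopolysaccharide to CD14 (0.65), TICAM2, an adaptor of Toll-like receptor 4 (0.62), and MYD88, the adaptor shared by most Toll-like receptors (0.38). The LBP call ended when only the day 18 arrays were fitted. At slaughter the mean signals of BPI and LBP lay below 6, so neither was tested in the fit limited to brighter probe sets. With IFNA 0 of 13 passed over placebo with limma, although 3 had an unadjusted p below 0.05, all higher, against 4.84% of all probe sets. On day 15 these numbers were 0 and 3 as well, the latter against 7.62% of all probe sets. Over PBS, 1 of 13 rose, BPI (0.97), against 0.712% of all probe sets, and its call ended without IFNA animal 2 or 3 or any 1 PBS animal (adjusted p of up to 0.175).

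Of the Fc receptors and their adaptors, 4 of 9 rose on day 18 and 1 fell, against 8.84% and 10.2% of all probe sets, with a median of 0.18. FCGR1A, the high-affinity receptor for immunoglobulin G, rose by 1.61, FCER1G, the signalling chain shared with FCGR3A, by 1.09, LYN, a kinase of these receptors, by 0.96, and TYROBP, a signalling adaptor of myeloid and NK cells, by 0.37. A second LYN probe set rose by 0.52 and the other (0.07) did not pass. The gene that fell, named after its value was seen, was FCGRT, the neonatal Fc receptor (-0.30). Without day 18 cyclic animal 2 or pregnant animal 4 the number that passed was 3, as TYROBP and FCGRT lost their calls. TYROBP also lost its call without cyclic animal 1, 3 or 4 or pregnant animal 2 (adjusted p of up to 0.144), and FCGRT without pregnant animal 1 or 3 (up to 0.0796). FCGR1A also rose with IFNA, by 1.32 over placebo and 1.22 over PBS, the 1 gene of 9 that passed in each, against 0.837% and 0.712% of all probe sets that rose. These calls ended without IFNA animal 2 or 3, placebo animal 2 or 3 (adjusted p of up to 0.115) or any 1 PBS animal (up to 0.187). Of the costimulation genes around CD86, 1 of 8 rose on day 18, LAMP3, a lysosomal protein of mature dendritic cells (0.92), a share near the 8.84% of all probe sets that rose. The mean LAMP3 signal over all arrays lay at percentile 9.38 of all probe sets, where low signal cannot be told from none. Its call ended when only the day 18 arrays were fitted. The costimulation list's median was 0.04, and 0 of 8 passed with limma on day 15 or with IFNA over placebo, where 0 and 1 had an unadjusted p below 0.05, against 7.62% and 4.84% of all probe sets with higher values.

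Of the genes of C1q and other phagocyte proteins, 9 of 16 rose on day 18, against 8.84% of all probe sets, with a median of 0.48. C1QB (1.69), C1QC (1.57) and C1QA (1.13) encode the chains of complement C1q, which macrophages are known to make, and CD53 (1.60) is a tetraspanin of leukocytes. On day 15, 2 of 16 rose, CD53 (0.78) and CTSS, the cathepsin that trims the invariant chain of MHC class II (0.39), against 2.75% of all probe sets. CD53 lost its day 15 call without cyclic animal 2 or 3 or pregnant animal 1 (adjusted p of up to 0.0778), and CTSS kept its call only without cyclic animal 1. With IFNA over placebo 4 of 16 rose, CD53 (1.99), C1QB (1.84), C1QC (1.58) and CTSS (0.66), against 0.837% of all probe sets, with a median of 0.76. That number ran from 0 to 4 over the 6 arrays left out in turn. CD53 lost its call without IFNA animal 2 (adjusted p = 0.0588), and C1QB without that animal or placebo animal 2 or 3 (up to 0.0761). C1QC lost it when IFNA animal 2 or 3, or placebo animal 2 or 3, was left out (up to 0.0915), and CTSS without any 1 IFNA animal or placebo animal 2 or 3 (up to 0.0969). Of the genes of monocyte attraction, 3 of 9 rose on day 18, against 8.84% of all probe sets, with a median of 0.25. These were the chemokines CCL8 (2.99), CCL2 (1.80) and CCL11 (0.80), and a second probe set of CCL2 rose by 1.27. At slaughter the mean signals of CCL2 and CCL11 lay below 6, so neither was tested in the fit limited to brighter probe sets. CCL8 also rose on day 15 (2.35) and with IFNA over placebo (2.03), the 1 gene of 9 in each, against 2.75% and 0.837% of all probe sets. The CCL8 call with IFNA ended when IFNA animal 2 or 3, or placebo animal 2 or 3, was left out (adjusted p of up to 0.15).

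**Figure D4:**
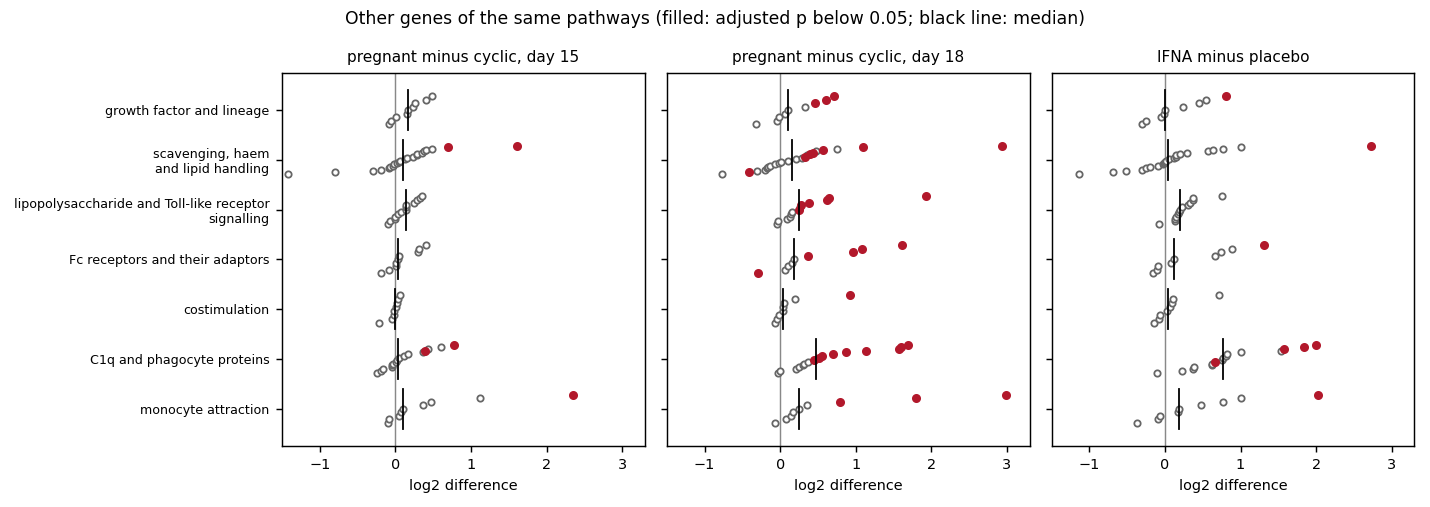
Log2 difference (horizontal axis) of each measured gene of the 7 pathway lists (rows) in pregnant minus cyclic animals on days 15 and 18 and in IFNA minus placebo. Filled points passed an adjusted p below 0.05 and black lines mark the list medians. In the list of C1q and phagocyte proteins the median stands at 0.48 on day 18 and at 0.76 with IFNA.

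Markers of other cell types that also make some of these genes were read beside them. The T and NK cell list, which bears on FCGR3A, had 0 of 12 genes past the threshold on day 18 with limma. Of all probe sets 8.84% rose and 10.2% fell. Of the 12, 1 had an unadjusted p below 0.05, with a higher value, against 13.4% of all probe sets. The list's median was 0.04, and its summed linear levels were 1017 to 1529 in cyclic and 1053 to 1533 in pregnant heifers. With IFNA 0 of the 12 passed over placebo or PBS with limma, and 3 and 2 had an unadjusted p below 0.05 with higher values, against 4.84% and 3.98% of all probe sets. The T and NK sum was 944 to 968 with IFNA, 625 to 1009 with placebo and 713 to 1021 with PBS, and its part in the FCGR3A difference was not tested. The endothelial list, which bears on OLR1, had 5 of 8 genes that fell on day 18 and 0 that rose. The shares of all probe sets were 10.2% and 8.84%, and the list's median was -0.71. The endothelial summed linear level was 2623 to 3838 in cyclic and 2110 to 2552 in pregnant heifers. With IFNA 2 of the 8 fell over PBS, PLVAP (-1.43) and PECAM1 (-1.01), both genes of the endothelial surface, against 0.15% of all probe sets. PECAM1 kept its call only without IFNA animal 1 (adjusted p of up to 0.109 over the 6 arrays left out in turn). The second probe sets of PLVAP (-0.53) and PECAM1 (-0.74) did not pass. Over placebo 0 of the 8 passed with limma. Of the 8, 2 had an unadjusted p below 0.05, both with lower values, against 3.63% of all probe sets. The endothelial sum was 1995 to 2788 with IFNA, 2590 to 3399 with placebo and 3778 to 4245 with PBS. Of the neutrophil list 2 of 6 rose on day 18 and 0 fell, against 8.84% and 10.2% of all probe sets. These were S100A12 (2.41) and S100A8 (0.91), genes of calcium-binding proteins that monocytes make too. The other genes of the list did not share this rise. The list's median was 0.01, and 3 of the 6 differences were above 0. With an unadjusted p below 0.05, 1 gene was lower, against 17.8% of all probe sets. The neutrophil sum was 358 to 400 in cyclic and 678 to 1267 in pregnant heifers. In the biopsies the neutrophil sum was 465 to 536 with IFNA, 591 to 1559 with placebo and 1389 to 1604 with PBS, so it was lowest in the IFNA animals. With limma 0 of the 6 genes passed over placebo or PBS. With an unadjusted p below 0.05, 1 and 3 were lower, against 3.63% and 5.36% of all probe sets. The sum weighs genes by their signal, so S100A12 and S100A8 (biopsy means 8.62 and 8.23) outweigh MMP9, ELANE and MPO (3.98, 3.37 and 4.46) in it. The part of neutrophils in these results was not tested. Of the B and plasma cell list 1 of 5 rose on day 18, against 8.84% of all probe sets. This was IGHM, the heavy chain of immunoglobulin M (1.29). IGHM also rose with IFNA over placebo, by 1.60 (adjusted p = 0.0463), a call kept only without placebo animal 1 (adjusted p of up to 0.164), and its difference of 1.32 over PBS did not pass (adjusted p = 0.105). The part of B cells in these results was not tested. Of the trophoblast list 0 of the 5 genes measured passed on day 18 with limma, against 19% of all probe sets. Of these 5, 0 had an unadjusted p below 0.05, against 31.2% of all probe sets. Of the dendritic cell list only CD83 and LAMP3 of 6 genes had a probe set, so dendritic cells are covered by few genes here. Of the macrophage list 5 of 6 genes were measured, all of them among the genes described here, and its summed level was 1016 to 1083 in cyclic and 1674 to 2323 in pregnant heifers on day 18.

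The levels of these genes were also compared between animals of the same group. For each gene 1 probe set was taken (the one with the highest mean), and each animal's deviation from its group mean was correlated across the 33 arrays. All 36 pairs of the 9 genes had r above 0, with a median of 0.50, and 18 pairs had r above 0.5. Over all pairs of 9028 named genes the median was 0.00, with 50.5% of pairs above 0 and 3.82% above 0.5. Without the 2 arrays farthest from the median, 35 of the 36 stayed above 0, and CD5L with CD86 stood at -0.02. The closest pair was AIF1 and CD86, with Pearson r = 0.83 and Spearman rho = 0.67, and r = 0.72 without the 2 arrays farthest from the median. CSF1R and CD5L were the least alike (r = 0.10). The median r was 0.71 within the 9 biopsy arrays and 0.36 within the 24 slaughter arrays. CD5L stood apart in the biopsies, with r below 0 against CSF1R, AIF1, CD68, MSR1, OLR1, FCGR3A and CD86 and 0.07 against CD14. These values describe the arrays, which share their set and RNA quality, and no test was made of them.

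**Figure D5:**
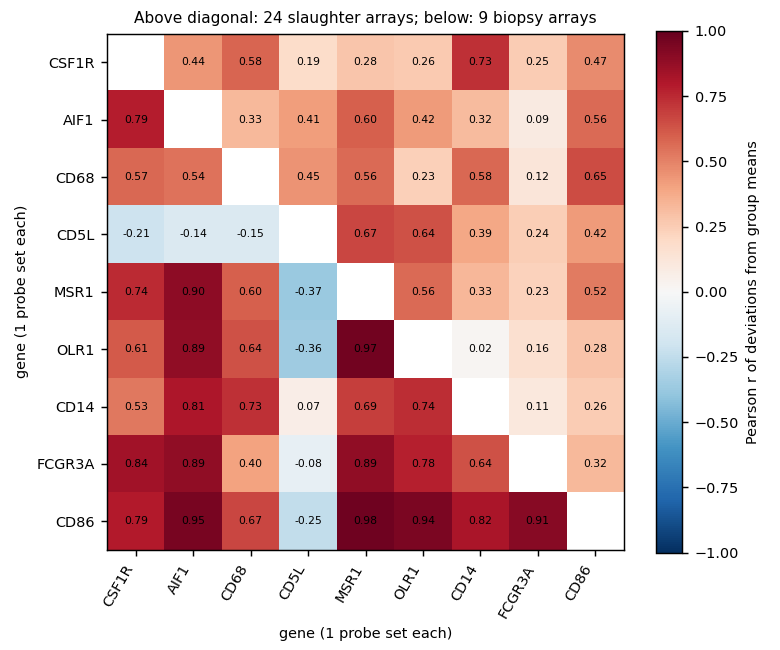
Pearson r (colour and printed value) between deviations from group means for each pair of the 9 genes, over the 24 slaughter arrays above the diagonal and the 9 biopsy arrays below it. Most biopsy values are above 0.5 except those with CD5L, and MSR1 with CD86 reaches 0.98.

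Among all named genes, those most like each of the 9 in this measure over the 33 arrays were mostly other genes than the 9 themselves. CD86 was most like GMFG, an actin regulator of blood cells (r = 0.89, and 0.85 without 2 arrays). CD14 was most like VCL, the adhesion protein vinculin (r = 0.87), and VEGFC, a growth factor of lymphatic vessels (r = 0.84). AIF1 was most like CD86 and then CCL8 (r = 0.81), and MSR1 was most like IFI16, an interferon-inducible DNA sensor (r = 0.80), followed by OLR1 (r = 0.76). FCGR3A was most like CHORDC1 (r = 0.80), CSF1R was most like ISG20L2 (r = 0.77) and then FERMT3, an integrin activator of blood cells (r = 0.76), and OLR1 was most like MSR1. CD68 was most like VEGFC (r = 0.75) and CCN1 (r = 0.72). CD5L was most like FBN1, the matrix protein fibrillin (r = 0.70), a value that was 0.41 without the 2 arrays farthest from the CD5L median. The 2 probe sets of CD14 correlated at r = 0.74, and those of MSR1 at 0.36, 0.50 and 0.70.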

How the data were processed

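The values of the deposited table are on a log2 scale, 1 per probe set and array. According to the submitters' processing notes, the authors used RMA in affy. Versions and the genome build are not given in the sources used here. Sorted values had a largest SD of 0.334 over all 33 arrays and of 0.0504 to 0.0669 within 4 sets (biopsies, day 12, day 15, day 18), so the sets were taken as normalised separately. This is an inference from the values. Control probe sets (112 of 24128) were removed. The annotation gave 1 symbol for 13292 of the others, several for 86 and none for 10638.

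Group means were compared by limma (3.58.1, R 4.3.3) with moderated statistics, on the 9 biopsy arrays, the 24 slaughter arrays or, for the terms that compare IFNA with pregnancy, all 33. Tests were two-sided, adjusted over 24016 probe sets. The fit was tested on simulated data. Precision depends on the number of arrays, and the SE of the 12 probe sets had a median of 0.23 in the biopsies and 0.116, 0.15 and 0.13 on days 12, 15 and 18. The labels call the arrays of a group biological replicates, and no 2 arrays were identical (highest correlation 0.994). The labels state no pairing of animals by replicate number. Correlations of same-numbered deviations ran from -0.34 to 0.37, and in none of the comparisons were all above 0.1. With so few animals per group, these values cannot exclude a pairing.

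All probe sets of the listed genes are described. Of each pathway list (growth factor and lineage; scavenging, haem and lipid handling; lipopolysaccharide and Toll-like receptor signalling; Fc receptors and their adaptors; costimulation; C1q and phagocyte proteins; monocyte attraction) the text names at most the 4 genes past the threshold with the largest difference per comparison, beside exceptions marked as such. For likeness, the 3 most similar genes per gene were found and the closest are named. The genes and lists were chosen with earlier results of these data known. The array's annotation has no probe set for CD163, which is not analysed here, and no sequences were used.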

Additional observations from a re-analysis of the deposited data

Results flagged for a closer look

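On day 12, 4 single values stood apart from the rest of their group of 5, out of 48 combinations of probe set and group examined. Chance alone marks about 1 in 20 groups. CD5L was 4.74 in cyclic animal 3, where the next highest value was 3.74, and 4.78 in pregnant animal 1, where the next highest was 3.78. FCGR3A was 4.66 in pregnant animal 5, above a next value of 4.45, and CD86 was 5.10 in pregnant animal 2, below a next value of 5.30. The difference between pregnant and cyclic animals changed from day 15 to day 18 for OLR1 (1.59), FCGR3A (1.19) and CD86 (0.90). For FCGR3A, the difference made by IFNA exceeded that made by pregnancy on day 15 by 1.49.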

How the results depend on the processing

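Of the 12 probe sets, 7 passed on day 18 in every fit that left out 1 array (7 to 7), as with array weights, joint quantile normalisation and an intensity trend, and as gene means 7 of the 9 genes passed. With only probe sets of a mean of at least 6, 4 passed, because OLR1, FCGR3A and CD86 were then not tested. Leaving out 1 array gave 0 to 3 for IFNA over placebo, 0 to 2 for IFNA over PBS, 0 to 0 for placebo over PBS and for day 12, 0 to 1 for day 15, 0 to 1 for the change from day 12 to 15, 2 to 3 for that from day 15 to 18, 0 to 4 for IFNA against day 15 and 0 to 0 for IFNA against day 18. For IFNA over placebo, 4 passed with array weights, 4 with the filter on dim probe sets, 5 with the GAPDH covariate, 5 with placebo and PBS together (added after seeing the data), 1 of the 9 genes by gene means and 0 when only the 2 groups were fitted. For IFNA over PBS, 4 passed with array weights, 0 with the dim filter and 2 with the covariate. For IFNA against day 15, 4 passed with the covariate and 0 with the dim filter. On day 15, 0 passed when only the 2 groups were fitted. For the change from day 12 to 15, 1 passed with quantile normalisation, the dim filter, the trend and gene means, which was AIF1. For that from day 15 to 18, 0 passed with the dim filter. With the replicate number as a block, 0 passed for IFNA over placebo, 1 for the change from day 12 to 15 and 0 for IFNA against day 15. In that fit 8 passed on day 18 and 2 for the change from day 15 to 18. The labels state no pairing by these numbers. For IFNA over placebo, the share of all probe sets that rose was 1.25% with the GAPDH covariate and 1.1% with placebo and PBS together. For the other alternative fits no such share is given, so their counts are not read as results about these genes. The causes of these changes were not tested, apart from the filter, which tests fewer probe sets. No result past the threshold changed direction. Of 93 pairs of probe set and comparison never past it, 34 changed sign under some alternative, all with a difference of at most 0.30. The values carry no detection calls, so low signal cannot be told from no signal.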
